A study of Homo sapiens with 14 samples.

Results

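The genes TGFBR2, TGFBR1, LOX, THBS1, TGFBI, CCN1, CCN2, PHLDA1 and SPRY1 belong to transforming growth factor beta (TGF-beta) signalling and the mesenchymal programme. They were chosen by name, with earlier results of these data known. All 9 were found among the 19970 protein-coding genes of GENCODE release 44 on the autosomes and X. The peaks come from TC-32, a cell line of Ewing sarcoma with the EWSR1::FLI1 fusion, labelled WT and untreated in all groups, and were mapped by CUT&RUN. CUT&RUN cuts and releases the DNA beside an antibody's target for sequencing. FLI1 has 4 libraries, 2 of set A and 2 of set B. H3K27ac, which marks active enhancers and promoters, has 2 libraries of set A, and H3K9me3 and H3K27me3, which mark repressed chromatin, have 2 each of set B, and each set had 2 IgG control libraries. The labels explain neither the letters nor whether replicates are separate cultures. All cells are of 1 line with the fusion, no sample lacks it, and RNA was not measured, so whether the fusion lowers these genes was not tested. The antibody reads FLI1 sequence, so the lists do not tell the fusion from unfused FLI1.

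In TGF-beta signalling, a ligand brings together the type II receptor TGFBR2 and the type I receptor TGFBR1, and TGFBR1 then phosphorylates SMAD2 and SMAD3, which enter the nucleus and act on genes with SMAD4. The pathway drives matrix production and the mesenchymal state. EWSR1::FLI1 binds the ETS core GGAA, alone or in tandem repeats, and is known to lower TGFBR2, LOX and other mesenchymal genes in Ewing sarcoma.

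At the 9 starts, FLI1 was present in some places, H3K27me3 at 1 gene, and H3K27ac and H3K9me3 at none. A start here is the gene start of the annotation with 1 kb either side, and a region is a run of overlapping peaks of 1 library. FLI1 was found there in all 4 libraries at CCN2 and PHLDA1, 2 of 9 genes, against 33.8% of all protein-coding genes. Neither call held at a −log10 q of at least 5, since the CCN2 region had 4.57 in set B replicate 1 and that of PHLDA1 3.95 in set A replicate 1. At least 1 FLI1 library had a region at 6 of 9 starts (54.1% of all genes). H3K27ac was at 0 of 9 starts in either library (23% of all genes), and H3K9me3 at 0 of 9 (2.73%). H3K27me3 was at the start of THBS1 in both libraries, 1 of 9 (9.47% of all genes). LOX and TGFBI had no region of any of the 10 lists at the start, 2 of 9, against 32.7% of all genes. As shares of 9 genes, FLI1 in all 4 libraries was 22.2%, FLI1 in any library 66.7% and H3K27me3 11.1%. Since 1 gene of 9 is 11.1%, these 3 shares are not read as differences from all genes.

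The sequences below are shown because they lie under the regions on which the later paragraphs turn, or at the starts where FLI1 or H3K27me3 was found. They are read 5′ to 3′, with GGAA and its reverse complement TTCC in capitals. Summit windows span 75 bases either side of the strongest FLI1 summit and come from hg38. Promoters are the 250 bases before the RefSeq start (RefSeq, build GRCh38.p14), which 8 of 9 members had, and in the first line the run of repeats alone is in capitals.
TTCC run in a GADL1 intron downstream of TGFBR2, chr3:30733560-30733667, plus strand: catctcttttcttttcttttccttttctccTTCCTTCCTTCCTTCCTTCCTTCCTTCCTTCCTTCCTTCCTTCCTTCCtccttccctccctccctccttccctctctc
TGFBR2 intron 5 summit, chr3:30681978-30682128, plus strand: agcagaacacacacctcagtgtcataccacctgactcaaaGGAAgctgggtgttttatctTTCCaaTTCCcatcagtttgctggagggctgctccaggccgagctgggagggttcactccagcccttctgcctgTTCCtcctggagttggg
TGFBI intron 2 summit, chr5:136037246-136037396, plus strand: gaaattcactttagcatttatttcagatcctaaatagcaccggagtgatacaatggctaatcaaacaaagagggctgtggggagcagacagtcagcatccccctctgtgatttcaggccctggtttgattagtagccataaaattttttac
PHLDA1 downstream summit, chr12:76021200-76021350, plus strand: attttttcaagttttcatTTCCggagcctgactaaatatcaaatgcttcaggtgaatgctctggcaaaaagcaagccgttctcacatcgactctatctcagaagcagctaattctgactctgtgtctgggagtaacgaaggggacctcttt
TGFBR2 promoter, chr3:30606106-30606355, plus strand: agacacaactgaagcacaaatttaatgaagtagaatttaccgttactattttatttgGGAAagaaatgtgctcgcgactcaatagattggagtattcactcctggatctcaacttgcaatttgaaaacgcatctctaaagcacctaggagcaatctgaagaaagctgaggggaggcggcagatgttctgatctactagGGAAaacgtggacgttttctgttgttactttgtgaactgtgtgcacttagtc
CCN2 promoter, chr6:131951373-131951622, minus strand: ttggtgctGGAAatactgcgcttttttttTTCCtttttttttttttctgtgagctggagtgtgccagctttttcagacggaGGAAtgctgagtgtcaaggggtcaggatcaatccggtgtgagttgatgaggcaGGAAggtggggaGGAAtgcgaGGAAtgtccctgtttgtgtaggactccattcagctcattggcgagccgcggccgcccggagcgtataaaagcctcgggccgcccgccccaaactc
PHLDA1 promoter, chr12:76031777-76032026, minus strand: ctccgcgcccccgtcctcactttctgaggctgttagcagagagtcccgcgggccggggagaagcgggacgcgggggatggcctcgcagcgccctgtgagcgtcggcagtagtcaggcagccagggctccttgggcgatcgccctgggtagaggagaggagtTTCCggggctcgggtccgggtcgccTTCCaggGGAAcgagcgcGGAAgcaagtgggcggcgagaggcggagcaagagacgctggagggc
THBS1 promoter, chr15:39580829-39581078, plus strand: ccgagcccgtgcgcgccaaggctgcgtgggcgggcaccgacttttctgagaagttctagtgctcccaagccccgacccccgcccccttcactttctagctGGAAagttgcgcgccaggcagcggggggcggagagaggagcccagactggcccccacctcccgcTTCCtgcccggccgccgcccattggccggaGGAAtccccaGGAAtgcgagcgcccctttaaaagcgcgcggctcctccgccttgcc

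The receptor gene TGFBR2 (ENSG00000163513, chr3:30606601-30694142, plus strand, 87.5 kb) had the most FLI1 regions of the 9. From 10 kb before to 10 kb past the gene they numbered 12 in each set A library and 10 in each set B library, a mean of 11 ± 1.15 (SD over the 4 libraries). This stood at percentile 98.7 of all protein-coding genes, and at 94.2 when counted per 100 kb of window. TGFBR2 is the longest of the 9, and per 100 kb CCN1 (percentile 98.4), PHLDA1 (97.6) and CCN2 (96.7) stood higher. The 4 libraries were close to each other, with both set A counts above both set B counts.

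The TGFBR2 regions that all libraries shared were in the 3′ part of the gene. Of 15 places with FLI1 in any library, 8 were found in all 4, and the nearest of these to the start began 48.1 kb into the gene. Intron 3 held 4 of them and intron 5 held 2. The highest within the gene by mean percentile over the 4 libraries lay in intron 5, 75.5 kb from the start (30680672 to 30682354). Its folds, the ratio of antibody to IgG signal that the authors' caller gave, were 9.85 and 13.8 (set A) and 19.7 and 20.4 (set B), at percentiles 72.0, 85.2, 90.4 and 92.9 of their lists. It was the strongest in the gene in both set B libraries. In set A the intron 3 region at 49.1 kb was stronger than it, with folds of 11.3 and 14.8. In set A replicate 1 the strongest in the gene was at 85.4 kb, in an untranslated part of an exon (fold 11.9). The summit window of the intron 5 region, printed above, holds 4 GGAA cores.

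An FLI1 region stronger in each library lay downstream of TGFBR2 in an intron of GADL1, a neighbouring gene that runs towards it on the minus strand. It spanned 30731373 to 30734980, with its summit 127.2 kb from the TGFBR2 start. Its folds were 58.3 and 55.9 for set A against 22.8 and 40.6 for set B, at percentiles 98.6, 98.4, 93.0 and 99.1. It was near the top of every FLI1 list and the highest by mean percentile of the 24 that the 4 libraries share within 50 kb of the members. It holds the run of 12 TTCC units at 30733590 to 30733637, printed above, which regions of all 4 libraries cover. The run is not at the summit: it begins 241 bases from the strongest summit. Within 75 bases of that summit there were 2 GGAA cores and no tandem GGAA. Of the 24 regions, the one in GADL1 was the only one with a run of at least 4 units, 1 of 24, while 8.15% of the 16163 such regions in the genome hold one. H3K27ac had a region inside it in replicate 2 alone (30734308 to 30734507, fold 4.50).

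**Figure D1:**
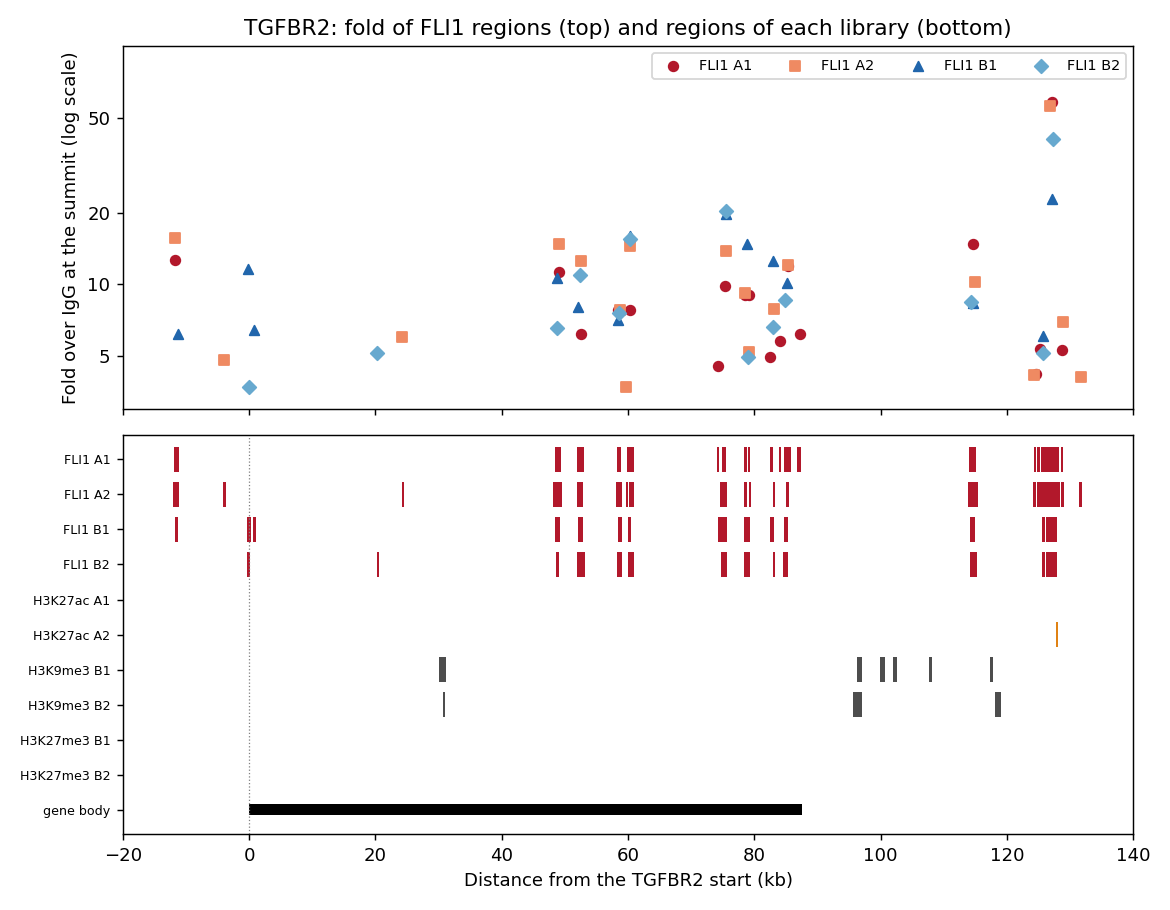
Fold over IgG of each FLI1 region within 50 kb of TGFBR2 (top, log scale) and all regions of the 10 libraries as bars (bottom), against distance from the TGFBR2 start in kb. The gene body is the black bar, letters and numbers name set and replicate, and the points at 127.2 kb reach folds of 22.8 to 58.3.

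At the TGFBR2 start itself FLI1 was found in both set B libraries and in neither set A library. This pattern was seen at 1 of 9 members and at 5.55% of all genes. Set B replicate 1 had a region at 30606293 to 30606976 with fold 11.6 (percentile 72.2) and a second in the first intron with fold 6.41 (percentile 28.1). Set B replicate 2 had a region at 30606273 to 30606728 with fold 3.71, at percentile 1.5 of its list. The replicates thus differed widely in strength at the same place. The promoter printed above has 2 GGAA cores, against a median of 3 in 15315 promoters. It ends at 30606355, before the gene start of the annotation (30606601) and before the FLI1 summits (30606421, 30606606 and 30607307). The GC content of the RefSeq entry, which adds 50 bases after the RefSeq start, is 42.3%, at percentile 8.37. Within 75 bases of the summit at 30606421 it is 56.3%. H3K27ac and H3K27me3 had no region within 50 kb of TGFBR2 other than the H3K27ac region named above. H3K9me3 had 2 and 2 regions within 10 kb, 1 of them inside the gene 30.8 kb from the start (folds 4.41 and 7.11) and 1 beyond its end at 96.7 kb (5.23 and 6.43).

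TGFBR1 (ENSG00000106799, chr9:99104038-99154192, plus strand) carried few regions. FLI1 counts with 10 kb either side were 2 and 1 for set A against 2 and 2 for set B, at percentile 64.7 of all genes. A region at the start was present in set A replicate 1 (fold 6.17) and in set B (folds 17.1 and 5.27), but not in set A replicate 2. Its summits lay 0.8 kb past the gene start of the annotation, just before the start that RefSeq gives. The percentiles of 40.6, 87.0 and 13.3 again differed widely. The TGFBR1 promoter has 0 GGAA cores in 250 bases, and its RefSeq entry has a GC content of 78.7%. A region found in all 4 libraries lay beyond the gene's end, 56.0 kb from the start, with folds of 3.76, 8.18, 10.7 and 7.77. H3K27ac and H3K27me3 had 0 regions within 50 kb.

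**Figure D2:**
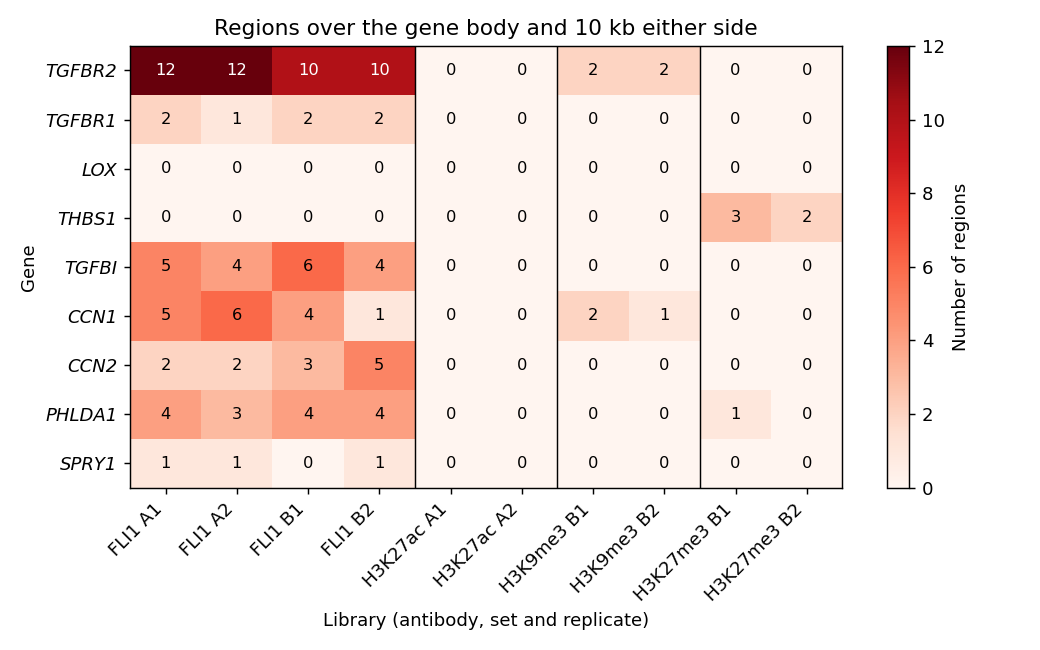
Number of regions of each library (columns, antibody with set and replicate) from 10 kb before to 10 kb past each gene (rows), with the number printed in each cell and in the colour scale. TGFBR2 has 10 to 12 FLI1 regions, LOX and THBS1 have 0, and the H3K27ac columns are 0 for all 9 genes.

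The matrix genes differed in FLI1, with no region found near LOX and THBS1 and regions found near TGFBI. LOX (ENSG00000113083, chr5:122063195-122078413, minus strand), the enzyme that crosslinks collagen and elastin, and THBS1 (ENSG00000137801, chr15:39581079-39599466, plus strand), a matrix protein that activates latent TGF-beta, had 0 FLI1 regions in each of the 4 libraries. This held with 10 kb either side, 2 of 9 genes against 23.5% of all genes, and with 50 kb either side, again 2 of 9 against 12.2%. With 9 genes, neither count is read as a difference from all genes. The nearest region found in all 4 libraries was 792.0 kb from the LOX start and 201.0 kb from the THBS1 start. These distances exceeded those of most genes, at percentiles 97.7 and 86.4, where the median was 22.7 kb.

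LOX and THBS1 differed in H3K27me3. THBS1 had 3 H3K27me3 regions in replicate 1 and 2 in replicate 2 within 10 kb, 1 of 9 members with the mark in both libraries (17.6% of all genes). The region across its start ran from 39578740 to 39582875 in replicate 1 (fold 5.57, percentile 85.8) and from 39580397 to 39582620 in replicate 2 (fold 6.80, percentile 98.0). Both were among the stronger H3K27me3 regions of their lists. The other shared segment lay at -7.6 kb. The THBS1 promoter printed above has 4 GGAA cores and 1 GGAATG, although no FLI1 region was near. THBS1 shares its downstream part with FSIP1, whose own start is 201.8 kb away.

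LOX had no region of any list within 10 kb, 1 of 9 members against 10.3% of all genes. With 50 kb either side it had 1 H3K9me3 region in each library, 32.4 kb past the start (folds 4.8 and 5.36, in an intron of SRFBP1), and 1 H3K27ac region in replicate 2 alone, in an exon of the same neighbour. The promoter of LOX has 4 GGAA cores, as many as that of PHLDA1, where FLI1 was found.

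TGFBI (ENSG00000120708, chr5:136028988-136063818, plus strand), a matrix protein that TGF-beta induces, had FLI1 regions on both sides of a start that carried none. Counts within 10 kb were 5 and 4 (set A) and 6 and 4 (set B), a mean of 4.75 ± 0.96 (SD, n = 4), at percentile 92.7 of all genes. The sets overlapped. With 50 kb either side the counts were 13, 9, 9 and 6. The highest by mean percentile lay in intron 2, with its summit 8.3 kb from the start and folds of 31.3 and 41.1 (set A) and 14.5 and 13.3 (set B). The percentiles were 95.8, 97.5, 81.9 and 80.6, so both set A libraries ranked it above both set B libraries. Set A peaks there ran together with neighbouring places, so the joined region spans 136030683 to 136038441 and reaches into intron 1, where all 4 libraries had a weaker region (folds 9.23, 6.32, 11.8 and 4.26). Its strongest summit, printed above, has no GGAA within 75 bases.

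A region upstream of TGFBI, at -9.6 kb, was at a similar level in the 4 libraries, and in set B replicate 1 it was stronger than the one in intron 2. Its folds were 11.5, 14.4, 17.5 and 13.0, with a mean percentile of 82.9 ± 4.73 (SD, n = 4). A second intron 2 region, 13.9 kb from the start, had folds of 9.33, 12.1, 13.8 and 9.34 and 4 GGAA cores at its summit. No H3K27ac or H3K27me3 region lay within 50 kb of TGFBI, and H3K9me3 had 1 there, in replicate 1 only.

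**Figure D3:**
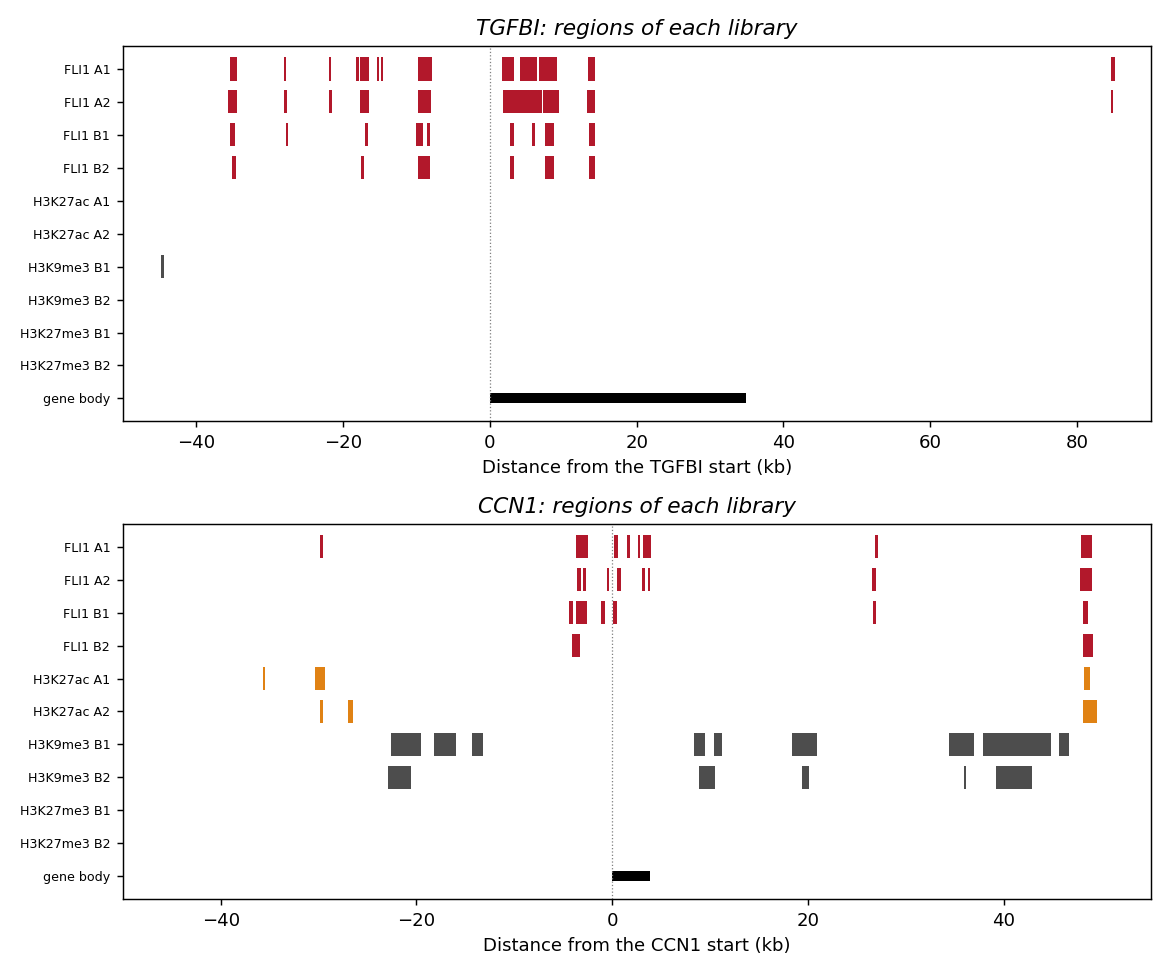
Regions of the 10 libraries (bars, rows by antibody with set and replicate) around TGFBI (top) and CCN1 (bottom), against distance from each gene's start in kb, with the gene body in black. At TGFBI only FLI1 has regions within 10 kb of the gene, and at CCN1 H3K9me3 regions lie on both sides and H3K27ac meets FLI1 at 48.5 kb.

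CCN1 and CCN2 encode secreted matricellular proteins and are known targets of YAP and TEAD. CCN1 (ENSG00000142871, chr1:85580761-85584589, plus strand) had 5 and 6 (set A) and 4 and 1 (set B) FLI1 regions within 10 kb, a mean of 4 ± 2.16 (SD, n = 4). Set B replicate 2 stood below the other libraries. At the start, regions were present in both set A libraries and in set B replicate 1. Their folds were between 3.68 and 7.40, and their percentiles ran from 1.65 to 55.7. The sole region within 10 kb found in all 4 libraries was upstream, from 85576369 to 85578306, with folds of 9.85, 4.55, 8.79 and 9.23. It lies inside DDAH1, a gene on the other strand, just past its start at 85578363, so to which of the genes it belongs cannot be told apart.

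Both repressive and active marks lay around CCN1, at different places. H3K9me3 was within 10 kb of CCN1 and of TGFBR2 in both libraries, 2 of 9 members against 25.3% of all genes, and at neither at a −log10 q of at least 5. At CCN1 6 segments shared by both H3K9me3 libraries lay within 50 kb, the strongest 41.1 kb from the start (85619982 to 85623655, folds 6.60 and 7.48, percentiles 96.7 and 98.8). H3K27ac was shared by both libraries at -29.7 kb (folds 4.52 and 4.79, with FLI1 in set A replicate 1 alone) and at 48.5 kb (85628927 to 85629609, folds 4.72 and 4.57). The latter lies within a FLI1 region of all 4 libraries, with folds of 8.94, 7.60, 9.66 and 21.8. It was the 1 of 24 such FLI1 regions near the members that met H3K27ac in both libraries, against 14.1% of the 16163 in the genome.

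CCN2 (ENSG00000118523, chr6:131948176-131951372, minus strand) had FLI1 at the same place before its start in all 4 libraries. Counts within 10 kb were 2 and 2 (set A) and 3 and 5 (set B), with no overlap of the sets and a mean of 3 ± 1.41 (SD, n = 4). The region at the start had folds of 4.25 and 7.44 (set A) and 4.18 and 7.87 (set B), at percentiles 8.76, 60.4, 2.78 and 47.9. In each set replicate 2 was higher than replicate 1. A further region upstream, at -3.3 kb, had folds of 5.37, 8.18, 10.1 and 6.04. Per 100 kb of window CCN2 stood at percentile 96.7 of all genes, as its short gene gives a narrow window.

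The promoter of CCN2 has 6 GGAA cores, 3 of them continuing as GGAATG, the letters that TEAD factors bind. GGAATG, searched on both strands, contains the ETS core, so the 2 motifs overlap. It was found in 2 of 8 member promoters (CCN2 and THBS1) and in 10.1% of all 15315. H3K27ac and H3K27me3 had 0 regions within 50 kb of CCN2. H3K9me3 had 4 and 3, all past the gene, the nearest shared segment 29.1 kb from the start (folds 4.88 and 4.72).

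PHLDA1 and SPRY1 act in growth factor signalling, SPRY1 as an inhibitor of receptor tyrosine kinase signalling and PHLDA1 as a protein with a pleckstrin homology-like domain. PHLDA1 (ENSG00000139289, chr12:76025447-76031776, minus strand) had 4, 3, 4 and 4 FLI1 regions within 10 kb, a mean of 3.75 ± 0.50 (SD, n = 4). Its start carried the strongest start region of the 9 genes, with a fold of 18.9 in set B replicate 1 (percentile 89.4). The strongest there was 10.5 in set B replicate 2 (68.4), 6.32 in set A replicate 2 (46.0) and 4.90 in set A replicate 1 (18). The set A values were both below the set B values. The set A replicate 1 region (76032245 to 76032444) shares no base with that of set A replicate 2 (76031525 to 76032016), so they are neighbouring places.

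The FLI1 region of PHLDA1 highest by mean percentile lay 10.5 kb from the start, beyond the gene's end, from 76020239 to 76021799. Its folds were 29.1 and 34.3 (set A) and 12.3 and 17.8 (set B), at percentiles 95.3, 96.7, 74.8 and 90.1. It ranked above the start region in both set A libraries and in set B replicate 2, and below it in set B replicate 1. Its summit window has 1 GGAA core. At 53.2 and 53.9 kb the H3K27ac libraries had 1 region each, which shared no base (75978452 to 75978892 in replicate 1 and 75977702 to 75977952 in replicate 2). Both touched a joined FLI1 region (75977779 to 75978520) found in 3 of 4 libraries. Its folds were 5.5 in set A replicate 2 and 8.12 and 18.8 in set B. H3K27me3 had 1 region in replicate 1 alone, 1.6 kb past the start.

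SPRY1 (ENSG00000164056, chr4:123396795-123403760, plus strand) had 1 and 1 (set A) and 0 and 1 (set B) FLI1 regions within 10 kb, at 3 separate places. A region found in all 4 libraries lay downstream, 22 kb from the start, with folds of 13.8, 14.5, 6.45 and 14.0 and percentiles of 83.5, 86.3, 28.7 and 82.9. Set B replicate 1 was low among them. H3K9me3 had 4 and 3 regions within 50 kb, the widest shared segment 38.6 kb past the start (folds 5.37 and 5.61).

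**Figure D4:**
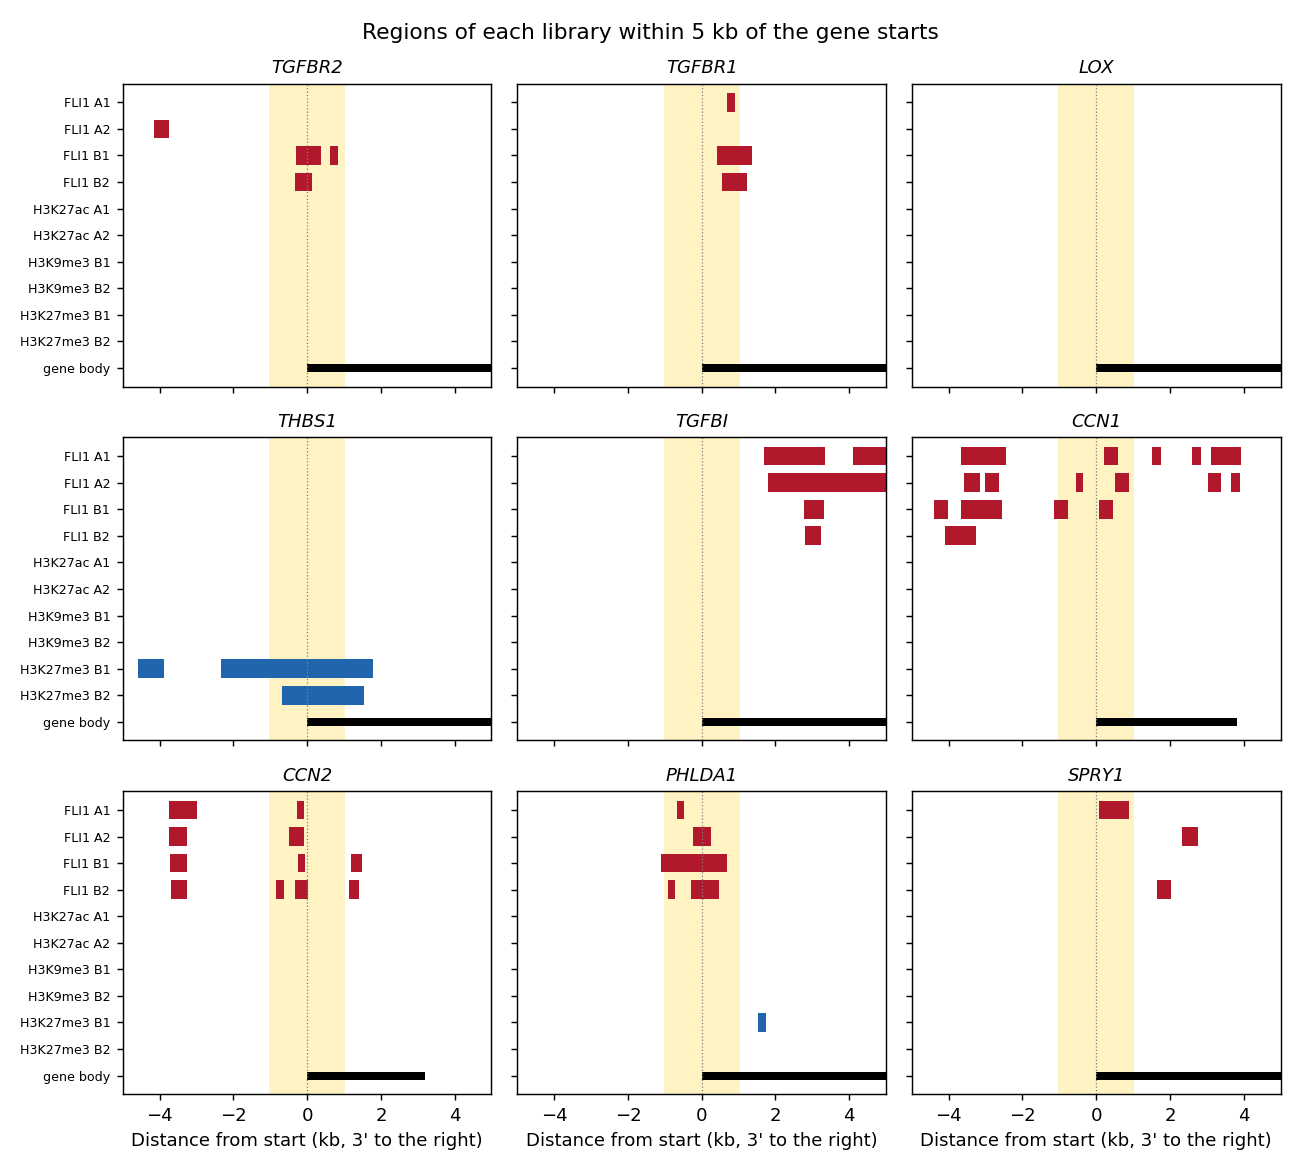
Regions of each library (bars, rows by antibody with set and replicate) within 5 kb of the 9 gene starts, against distance in kb with the gene to the right, and the window of 1 kb either side shaded. CCN2 and PHLDA1 have FLI1 in the window in all 4 libraries, THBS1 has H3K27me3 in both, and LOX and TGFBI have no region there.

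FLI1 regions at the members' starts ranged from near the bottom to the upper part of their lists. There were 5 and 4 (set A) and 7 and 6 (set B). The median percentile of fold was 34.3 and 32.9 for set A against 28.1 and 13.4 for set B, where the medians over all protein-coding starts were 65.4, 66.0, 67.7 and 64.2. In each of the 4 libraries the members' median lay below that of all starts. Single regions ran from percentile 8.76 to 55.7 and 3.07 to 60.4 for set A and from 1.65 to 89.4 and 1.5 to 68.4 for set B. PHLDA1 in both set B libraries, and TGFBR1 and TGFBR2 in set B replicate 1, were above the median of all starts. Elsewhere within 50 kb of the members there were 44, 43, 35 and 30 regions, with medians of 54.5, 62.2, 55.1 and 46.0. Regions away from starts in the whole lists had medians of 45.7, 46.0, 44.8 and 45.1, lower in 3 libraries and about the same in set B replicate 2. The members' regions include those beside the start of DDAH1, which the whole-list medians leave out. All these values are descriptions of a list chosen by name with earlier results of these data known. Regions of 1 gene are not independent of each other.

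**Figure D5:**
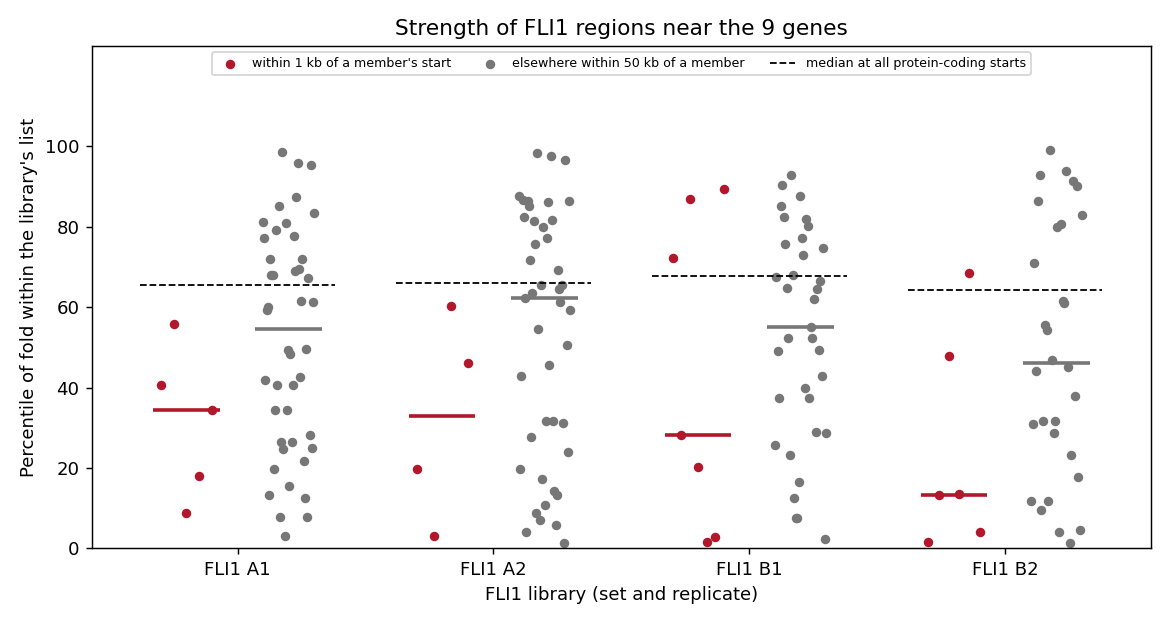
Percentile of fold within its own list of each FLI1 region within 1 kb of a member's start (red) and elsewhere within 50 kb of a member (grey), by library, with bars at their medians and a dashed line at the median of all protein-coding starts. The red medians are 34.3, 32.9, 28.1 and 13.4, and the dashed lines lie between 64.2 and 67.7.

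Over gene bodies and 10 kb either side, FLI1 was in all 4 libraries at 6 of 9 members (56.3% of all genes), all but LOX, THBS1 and SPRY1. H3K27ac was at 0 of 9 in either library, against 45.2% of all genes. It was also at 0 of 3 known activated targets of the fusion, NR0B1, NKX2-2 and CCND1, in the same window. Of all genes, 54.8% had none there. Pathway genes outside the members went both ways, with 10 and 11 H3K27ac regions at SMAD3 and 0 in both libraries at TGFB3. Whether the members differ from such genes in H3K27ac was not tested. With 50 kb either side, H3K27ac was in both libraries at CCN1 and PHLDA1, 2 of 9 (44.8%), H3K9me3 at 6 of 9 (44.5%) and H3K27me3 at THBS1 alone, 1 of 9 (29.4%). The 17 segments shared by both H3K9me3 libraries near 6 of the members were touched by no FLI1 library. The share of such segments in the genome that FLI1 touches was not computed, so this count has no background. None of the 24 shared FLI1 regions met H3K9me3 or H3K27me3 in any library. In the genome 2.28% of shared FLI1 regions met H3K9me3 and 0.353% met H3K27me3 in at least 1 library. The members' median length was 15.2 kb, against 27.5 kb for all genes, which narrows their windows.

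Motifs under the shared FLI1 regions were counted without a test. Within 75 bases of the summit, GGAA or TTCC was found in 19 of 24 member regions (79.2%) and in 84.2% of all 16163, with a median of 2 sites in both. The AP-1 letters TGAGTCA (both strands) were in 2 of 24 (8.33%), both at TGFBR2, and in 2.64% of all. The TEAD letters GGAATG were in 1 of 24 (4.17%), at CCN2, and in 7.93% of all. The ETS sequence CCGGAAGT was in 0 of 24 (1.29% of all) and the SMAD palindrome GTCTAGAC in 0 of 24 (0.0742%). No match says only that these letters are not in this window.

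The wider pathway was read from lists of 88 further genes. FLI1 was at the start in all 4 libraries in 40 of 88 (45.5%, against 33.8% of all genes), H3K27ac in both in 7 (7.95%, against 11.3% of all genes), and H3K27me3 in both in 6 (6.82%, against 9.47%). Among ligands and latency proteins it was 2 of 9, TGFB1 and TGFB3, with H3K27ac at LTBP3 and H3K27me3 at LTBP1 and INHBB. Among other receptors it was 4 of 10, ACVR1, ACVR1B, BMPR1A and BMPR2, the last also with H3K27ac. Among SMADs and their regulators it was 6 of 13, including the signal carriers SMAD2 and SMAD3, the inhibitory SMAD6 and the corepressor SKIL, with H3K27ac at SMAD5. Among TGF-beta target genes it was 8 of 12, including JUNB, ID1 and ID2, with H3K27ac at ID2.

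Among mesenchymal genes FLI1 was at 6 of 16 starts in all 4 libraries, against 33.8% of all genes. These included ZEB2, CDH11, VIM and FN1, and H3K27me3 was at PRRX1, a mesenchymal transcription factor. Among YAP and TEAD genes FLI1 was by the same call at 4 of 10, YAP1, TEAD2, TEAD4 and AMOTL2, with H3K27ac at TEAD2. Among paralogs of the members it was at 10 of 18, including LOXL3, THBS3, THBS4 and PHLDA2. H3K27ac was at LOXL1 and SPRY3, and H3K27me3 at THBS2, COMP and CCN4. The thrombospondin family was thus mixed, with H3K27me3 at THBS1, THBS2 and COMP and FLI1 at THBS3 and THBS4. No share was tested against the rest, and none is read as a difference from all genes.

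Profiles of region counts over the 10 libraries were compared with these 88 genes by the sum of absolute differences. TGFBR2 was nearest to TGFBR3 (sum 12), TGFBR1 to TGFB3 and LOXL3 (2) and TGFBI to BAMBI and THBS3 (6). CCN1 was nearest to SPRED1 (5), SPRY1 to LATS2 (2) and THBS1 to INHBA (1). CCN2 had 3 genes tied at 4, among them LTBP2 and PMEPA1, PHLDA1 had 3 tied at 5, among them IER3 and THBS3, and LOX had 5 tied at 0, among them ACVRL1 and TAGLN.

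The lists held 29339 to 40590 FLI1 regions, 10219 and 17366 of H3K27ac, 36687 and 21770 of H3K9me3 and 21461 and 16667 of H3K27me3. As a check of antibody and cells, the 3 fusion targets named above had FLI1 at the start in all 4 libraries, 3 of 3 (33.8% of all genes). None had H3K27ac at the start, and NKX2-2 had H3K27me3 within 10 kb in both libraries. No read totals were used, so the depth is unknown, and a place without a region was not detected, which does not show it to be unbound or unmarked.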

How the data were processed

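Peak lists of 10 antibody libraries from TC-32 cells were used. Per the names of the deposited lists and their peaks, the authors called each list against the IgG library of the same number, after removal of duplicates and without pooling, as narrow peaks for FLI1 and H3K27ac and broad peaks for the other marks. The submitters' processing notes name cutadapt 4.4, Bowtie2, Picard 2.17.11, MACS2 2.1.1 and hg38, with no settings. The deposited fold is the ratio of antibody to IgG signal of a peak, the deposited significance its −log10 p-value and −log10 q-value, and the deposited score is 10 times the latter cut to a whole number. The lowest −log10 q was 2.00, and all 267530 regions lie within the chromosome lengths of hg38.

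From these, overlapping peaks within a list were joined into 1 region with the fold of its most significant peak, and counted at starts (1 kb either side) and over gene bodies (10 and 50 kb either side) with at least 1 shared base. Regions of the 4 FLI1 lists that overlap were joined to find those in all 4. Percentiles of fold are within a list, since folds depend on each library's depth. No test was run: libraries differ by antibody, and set A against set B (2 libraries each) could not go below an exact permutation p of 0.333. The members and lists were chosen with earlier results of these data known. All 9 members are named, and of the other lists up to 4 genes for each start state, in list order, except a gene that is not reported here by name. Region counting was tested on simulated data with 400 genes, and all 200 planted regions were found. Python 3.11.15, numpy 2.4.6, pandas 2.3.3 and matplotlib 3.10.9 were used. Alternatives covered window, start, overlap rule, strength and left-out libraries, and calls by set and in any library over gene bodies were added after the data were seen.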

Additional observations from a re-analysis of the deposited data

How the results depend on the processing

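Of the 9 members, FLI1 at the start, in all 4 libraries at 2, was at 4 with a window of 5 kb (TGFBI and CCN1 added), at 0 with a −log10 q of at least 5, at 6 in any 1 library and at 4 in both libraries of set B. Over gene bodies and 10 kb either side, FLI1 went from 6 members to 2 over the gene body alone (TGFBR2 and TGFBI), H3K27ac from 0 to 2 with 50 kb, and H3K9me3 from 2 to 6 with 50 kb, 1 over the body alone and 0 at the stricter q. H3K27me3 went from 1 to 2 in any 1 library, and leaving out each replicate gave 1 to 2, PHLDA1 being added without set B replicate 2. Summed over members, the mean FLI1 count of 29 was 19.25 over the body alone. For H3K27ac the sum of 0 was 5 with 50 kb. For H3K9me3 the sum of 3.5 was 22 with 50 kb, 1 over the body alone and 1 at the stricter q, and for H3K27me3 the sum of 3 was 1.5 over the body alone and 1 at the stricter q. Of single genes, the mean FLI1 count over the body alone was 0.75 at TGFBR1, CCN2 and PHLDA1 (from 1.75, 3 and 3.75) and 3.5 at TGFBI (from 4.75), and at the stricter q 9.75 at TGFBR2 (from 11) and 2.75 at PHLDA1. Wider windows and fewer libraries raise such counts by construction.

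No paired analysis was possible because no result comes from a test and lists of different antibodies with the same set and number, which share an IgG control, measure different things. The other 84 values for counts of members and sums over members equalled the main ones or kept within 1.5 times of them. For single genes the other 66 values kept within the SD over the libraries. Depth is unknown, so a place without a region was not detected at the depth of that library.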
